A study of Mus musculus with 20 samples.

Results

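The 20 quadriceps libraries were analysed here for the effect of an antibody against GDF8 taken over both hind limbs of each mouse. For every mouse the log2(CPM + 1) values of the injured limb and of the uninjured limb were averaged, where CPM is the read count of a gene after every library has been brought to a total of 1e+06. This gave 5 mouse means with GDF8 Ab and 5 with the placebo antibody (PLA Ab), made from 10 libraries each, which are all 20 libraries of the series. The 2 sets of 5 means were compared across 13502 of 17415 genes, those with at least 1 CPM in at least 5 libraries, and genes whose difference had the same sign in each limb were sought. The animals were adult mice of both sexes, with a surgical anterior cruciate ligament transection (ACLT) of a single limb, and muscle was taken 7 days later from 4 groups of 5, the ACLT and the control limb under each antibody. Both antibodies were given by subcutaneous injection. The study used C57BL/6J and Col1-eGFP mice for such treatments, and the labels do not say which of them gave these libraries. The control limb belonged to an operated mouse, so no library came from an animal without injury. The labels number libraries within a group without calling the number a mouse. Limbs that share a number and an antibody were treated here as a pair from the same mouse. Tests on 1 value per mouse give p-values that measure the spread between those mice.

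Myostatin, or GDF8, the product of Mstn, is secreted by skeletal muscle, belongs to the TGF-beta family and restrains muscle growth. It is held latent by its propeptide and by binding proteins such as follistatin, signals through activin type II receptors (Acvr2a and Acvr2b) with a type I receptor, and leads to phosphorylation of SMAD2 and SMAD3, which act on target genes with SMAD4. Loss of GDF8 is known to enlarge muscle in mice and other mammals, with a shift towards fast fibres. An injected antibody reaches both limbs, whereas the ligament is cut in a single limb, so the mean over the limbs asks what the antibody groups differed in regardless of injury.

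The depth read from the smallest step between values was 15.6 to 24.2 in units of 1e+06 reads per library, and 16785 to 17313 genes were above 0. Defining muscle markers (Acta1, Ckm, Mb, Ttn and Myh4) were high in all 20 libraries, with summed levels between 74805 and 130628 CPM. Summed CPM of 16 macrophage and monocyte markers was 54.0 to 160 (control limb) and 417 to 3068 (ACLT limb) with PLA Ab, against 89.7 to 143 and 150.5 to 488 with GDF8 Ab. The neutrophil markers S100a8 and S100a9 together stayed at or below 8.92 CPM. 3 PLA Ab libraries stood apart from the rest. On the first principal component, which held 65.4% of the variance, the ACLT limbs of PLA Ab mice 2, 4 and 5 lay at 50, 90.5 and 124, and the other 17 libraries between -37.6 and 8.8. Y-linked genes were expressed in both limbs of 3 mice (PLA Ab mice 1 and 3, GDF8 Ab mouse 3) and in neither limb of the other 7, so the PLA Ab mice whose ACLT limbs stood apart were also the ones without Y-linked expression. Sex and the position of these libraries cannot be told apart within the PLA Ab group. List results are also given without PLA Ab mice 4 and 5, the 2 farthest apart in these same data, so they are no independent check. Counts of calls and some other values are also given without mice 2, 4 and 5, chosen after seeing the data. That set leaves PLA Ab mice 1 and 3, both with Y-linked expression, against 5 GDF8 Ab mice of which 1 has it. Sex and antibody can hardly be told apart there.

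No gene passed the test on the 10 mouse means. limma called 0 of 13502 genes (0%) at a Benjamini-Hochberg adjusted p under 0.05, and the smallest adjusted p was 0.114. At an unadjusted p under 0.05 there were 2991 genes (22.2%), of which 280 lay above (2.07% of genes tested) and 2711 below placebo (20.1%) with GDF8 Ab. Without PLA Ab mice 4 and 5 these shares were 1.64% above and 6.84% below. The difference had the same sign in each limb for 2564 of them, 275 above placebo (2.04% of genes tested) and 2289 below (17% of genes tested). Over all genes tested the sign agreed between limbs for 8387 (62.1%), 1659 above placebo and 6728 below. On the mean of the limbs 2896 of all genes tested lay above placebo and 10606 below. The predominance of lower values depended on the scaling. The median difference over all genes was -0.13 on CPM (-0.04 in the control limb and -0.20 in the ACLT limb), and -0.0086 after median-of-ratios scaling, a shift of 0.12. On that scaling 1068 genes lay above and 1299 below placebo at an unadjusted p under 0.05, so the share above placebo was 45.1% in place of 9.36%, and 0 genes were called. On that scaling the medians over both limbs of the proteasome, IGF, slow fibre, Homer and calcium, immediate early, circadian, Schwann cell, oxidative stress and mitochondrial ribosomal lists changed sign, and those of the other lists did not. Differences below are on the log2(CPM + 1) scale as GDF8 Ab minus PLA Ab, ± SE, the standard error from limma, and understate the change of genes near 1 CPM. Each SE rests on n = 5 mice per antibody.

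A few genes passed when the 20 libraries entered the fit singly. The p-values of such fits draw on spread within mice as well as between mice. With the mouse entered as a random effect, below called the blocked fit (consensus correlation between the limbs of a mouse, 0.23), limma called 8 genes (0.0593%), all with the same sign in each limb. The 4 that rose were Timp4, Bcl6, Igkc and Jchain, and the 4 that fell were Mylip, Abca1, Uap1 and Syt11, at adjusted p between 0.014 and 0.0425. Igkc and Jchain met the filter of 1 CPM in 5 libraries only through GDF8 Ab libraries, where they were high. Their calls are therefore a description and no separate support. Without a block, which treats the limbs of a mouse as separate animals, 142 genes were called (1.05%), 22 above and 120 below placebo, and 139 of them had the same sign in each limb. The 10 mouse means of the 2 antibodies did not overlap for 27 genes above placebo (0.2%) and 540 below (4%). A stricter description, no overlap among the 5 against 5 libraries of either limb, held for 2 genes above placebo (0.0148%), Timp4 and Aldh4a1, and 17 below (0.126%), led by Mylip, Pkig, Golm2 and Capns1. The other 13 were BC005537, Polr3e, Mttp, Rfx5, Snx5, Hnrnpul1, Polr1d, Bsdc1, Gla, Alg5, Zfp426, Ppp6r3 and Mrps10, with differences of -0.61 to -0.13. That of Mrps10 changed sign, to 0.0023, on median-of-ratios scaling. The rest of the 17 genes moved nearer 0 on that scaling, such as Ppp6r3 from -0.17 to -0.026 and Capns1 from -0.32 to -0.18. Overlap was counted on CPM only.

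**Figure D1:**
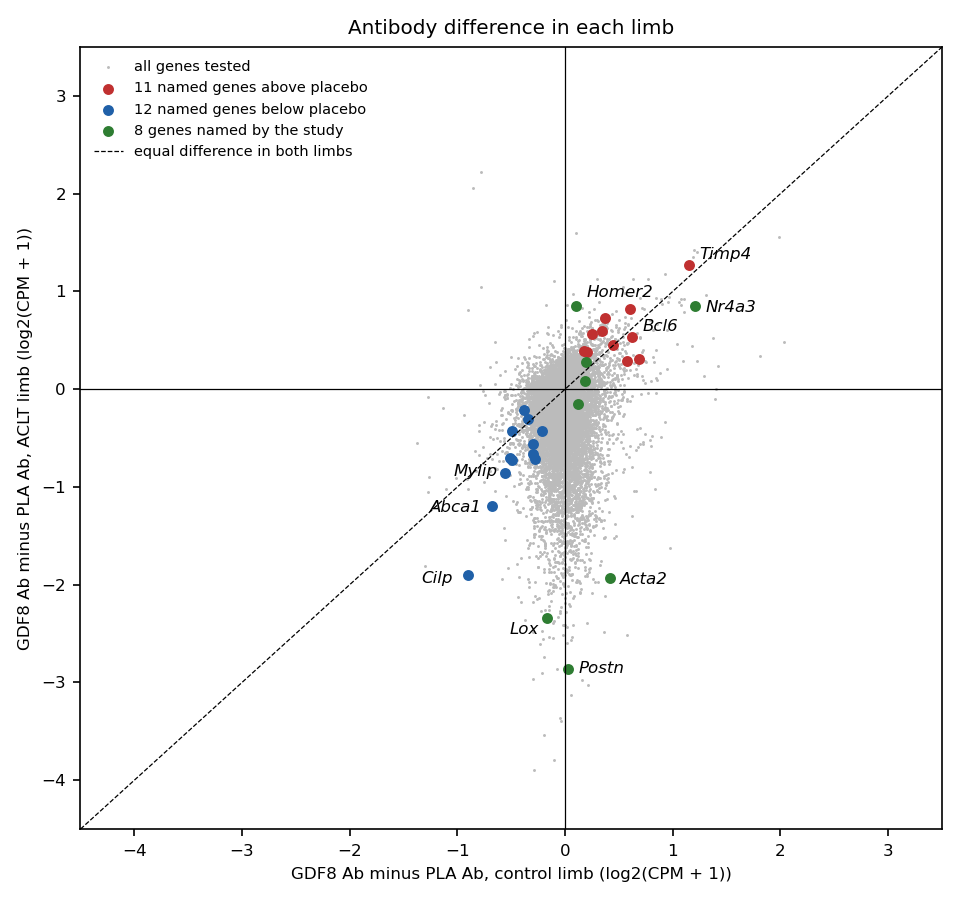
GDF8 Ab minus PLA Ab in the control limb (x axis) and in the ACLT limb (y axis), both as differences of mean log2(CPM + 1) over 5 libraries per group, for 13502 genes. Of the genes named by rank, Timp4 lies near the dashed line of equal differences (1.15 and 1.27) and Cilp below it (-0.91 and -1.90), whereas Postn, Lox and Acta2 lie farther below, with ACLT-limb differences of -2.86, -2.34 and -1.93.

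The promoter windows of Timp4 and Aldh4a1, the pair whose libraries lay wholly above placebo in each limb, and of Mylip, the leading gene among the 17 that lay wholly below it, are printed here from RefSeq (GRCm38.p6), each from 250 bases before to 50 after the annotated start and written 5′ to 3′ on the gene's strand. Timp4 is at chr6:115252156-115252455 on the minus strand, Aldh4a1 at chr4:139622644-139622943 on the plus strand and Mylip at chr13:45389492-45389791 on the plus strand. Capitals mark the short Smad-binding letters CAGAC or their reverse complement GTCTG, and the E-box CANNTG, the letters bound by many muscle transcription factors.

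Timp4: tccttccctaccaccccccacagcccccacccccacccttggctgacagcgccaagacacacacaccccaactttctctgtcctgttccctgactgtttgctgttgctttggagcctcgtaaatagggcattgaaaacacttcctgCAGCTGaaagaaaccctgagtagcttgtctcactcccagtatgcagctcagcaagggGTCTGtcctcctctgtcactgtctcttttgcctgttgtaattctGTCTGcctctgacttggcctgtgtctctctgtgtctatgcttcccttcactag

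Aldh4a1: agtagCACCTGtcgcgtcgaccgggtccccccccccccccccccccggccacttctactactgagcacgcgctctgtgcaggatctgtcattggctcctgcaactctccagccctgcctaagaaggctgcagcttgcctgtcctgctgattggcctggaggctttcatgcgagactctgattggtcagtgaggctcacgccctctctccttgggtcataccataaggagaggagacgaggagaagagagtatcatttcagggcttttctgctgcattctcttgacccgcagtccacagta

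Mylip: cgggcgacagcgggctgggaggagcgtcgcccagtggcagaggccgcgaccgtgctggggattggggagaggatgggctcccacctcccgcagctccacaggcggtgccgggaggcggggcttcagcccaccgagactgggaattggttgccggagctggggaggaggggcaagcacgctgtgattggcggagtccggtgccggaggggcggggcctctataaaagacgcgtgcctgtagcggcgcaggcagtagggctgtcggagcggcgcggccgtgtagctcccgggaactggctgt

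The Timp4 window held 2 CAGAC elements and 1 E-box, the Aldh4a1 window 1 E-box, and the Mylip window neither. Of 32851 promoter windows of this length in the table, 49.6% hold CAGAC and 72.3% an E-box on either strand, and the motifs were counted separately where they overlap. None of the 3 windows held the full Smad element GTCTAGAC (0.213% of all windows), the NR4A element AAAGGTCA (1.51%), the cAMP element TGACGTCA (1.79%) or the MEF2 element (3.19%). These counts describe the letters of the windows only.

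For each direction, the 12 genes with the smallest p were named among those with the same sign in each limb and a mean of at least 5 CPM, although none passed on the mouse means. Timp4 encodes an inhibitor of matrix metalloproteinases and had the smallest p of the 12 named genes above placebo (ENSMUSG00000030317, chromosome 6). It measured 7.7, 13.5, 12.3, 12.1 and 23.6 CPM in the control limbs of PLA Ab mice 1 to 5 and 24.5, 32.7, 24.8, 40.5 and 30.4 CPM in those of GDF8 Ab mice 1 to 5. The ACLT limbs of the same mice gave 7.35, 13.7, 14.4, 5.4 and 6.73 CPM with PLA Ab and 19.9, 22.5, 22.6, 32.6 and 18.6 CPM with GDF8 Ab. All 5 GDF8 Ab libraries exceeded all 5 PLA Ab libraries in each limb. The highest PLA Ab library, the control limb of mouse 5, lay just under the lowest GDF8 Ab control library. The mouse means differed by 1.21 ± 0.185 (limma adjusted p = 0.118, and 0.0383 in the blocked fit), 1.15 in the control and 1.27 in the ACLT limb. By exact permutation of the 10 means, two-sided, p was 0.00794, the smallest that these 10 values allow. Every gene whose mouse means did not overlap has this p, 27 genes above placebo (0.2%) and 540 below (4%). Timp4 was picked by its p on the same means, so this value is a description and no separate support. Aldh4a1 encodes a mitochondrial enzyme of proline breakdown (ENSMUSG00000028737, chromosome 4). Its levels were 117, 137, 139.8, 133 and 134 CPM with PLA Ab and 162, 149, 156, 153 and 168 CPM with GDF8 Ab in the control limb, against 106, 125, 136, 81.7 and 76.6 CPM and 162, 137, 147, 163 and 154 CPM in the ACLT limb. The groups did not overlap in either limb, although the closest ACLT libraries were near each other. Its difference was 0.41 ± 0.0901 (limma adjusted p = 0.144).

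Bcl6, a transcriptional repressor (ENSMUSG00000022508, chromosome 16), was also above placebo. It was at 62.2, 64.5, 70.4, 61.6 and 48.1 CPM with PLA Ab and 101, 97.9, 68.2, 111 and 99.4 CPM with GDF8 Ab in the control limb, against 59.7, 65.4, 74.9, 71.2 and 61.6 CPM and 101, 95.8, 72.2, 124 and 96 CPM in the ACLT limb. GDF8 Ab mouse 3 was low in both limbs, within the placebo range, and the other 4 GDF8 Ab mice were above every placebo library of the same limb. The difference was 0.58 ± 0.124 (limma adjusted p = 0.144, 0.0383 in the blocked fit). Among the genes of immune cells, the immunoglobulin genes Igkc and Jchain, singled out after their values were seen, showed low levels that were higher with GDF8 Ab. Igkc, the kappa light chain constant region, was at 1.14, 0.523, 0.231, 0.449 and 0.124 CPM with PLA Ab and 4.55, 1.09, 3.71, 2.27 and 1.56 CPM with GDF8 Ab in the control limb, against 1.97, 1.23, 0.462, 0.189 and 0.421 CPM and 2.81, 5.45, 3.02, 5.08 and 2.55 CPM in the ACLT limb. Only 1 GDF8 Ab library, the control limb of mouse 2, fell within the PLA Ab range of its limb. Its difference was 1.31 ± 0.205 (limma adjusted p = 0.118, 0.0383 in the blocked fit). Jchain, which joins polymeric immunoglobulins, differed by 0.77 ± 0.136 (limma adjusted p = 0.122, 0.0383 in the blocked fit), from 0.142 to 0.789 CPM with PLA Ab and 0.608 to 2.52 CPM with GDF8 Ab. Both immunoglobulin genes passed the 1 CPM filter only through GDF8 Ab libraries. Of the 14 lymphocyte and plasma cell markers, 9 were listed and 4 passed the filter. The T cell gene Cd3e differed by 0.33 ± 0.207 and the heavy chain gene Ighm by -0.021 ± 0.662.

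Another 8 of the 12 leading genes above placebo had differences between 0.28 and 0.71, at adjusted p from 0.142 to 0.156 in limma. They were Mlf1 (0.55), a gene with high expression in striated muscle, Kcnab1 (0.71), an accessory subunit of potassium channels, Gpihbp1 (0.50), which carries lipoprotein lipase to the capillary surface, Ivd (0.47), an enzyme of leucine breakdown, Cd59a (0.45), a complement inhibitor, Rasgrp2 (0.43), an exchange factor for Rap proteins, Carnmt1 (0.29), the carnosine methyltransferase, and Tuba8 (0.28), an alpha tubulin. Mlf1 was at 102, 169, 125, 89.2 and 120.3 CPM with PLA Ab and 173, 162, 134, 149.9 and 152 CPM with GDF8 Ab in the control limb, against 90.2, 92.3, 135, 77.9 and 90.4 CPM and 146, 143, 171, 158 and 178 CPM in the ACLT limb. PLA Ab mouse 2 reached the GDF8 Ab range in its control limb, and no placebo library did so in the ACLT limb.

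Mylip led the genes below placebo with no overlap in either limb. It encodes a ubiquitin ligase, also called IDOL, that directs the LDL receptor to degradation (ENSMUSG00000038175, chromosome 13). It measured 24.5, 23, 22.3, 19.3 and 26.4 CPM in the control limbs of PLA Ab mice 1 to 5 and 18.8, 13.1, 15.9, 14.8 and 18.2 CPM in those of GDF8 Ab mice 1 to 5. The ACLT limbs of the same mice gave 28.3, 28, 26.7, 33.6 and 37.4 CPM with PLA Ab and 20.1, 16.4, 17, 19.1 and 18.4 CPM with GDF8 Ab. Every GDF8 Ab library lay below every PLA Ab library of its limb. The mouse means differed by -0.61 ± 0.0934 (limma adjusted p = 0.118, and 0.014 in the blocked fit), -0.50 in the control and -0.72 in the ACLT limb. Abca1, which exports cholesterol from cells and like Mylip is a known target of the liver X receptors, showed the same order (ENSMUSG00000015243, chromosome 4). It was at 40, 21.9, 23.8, 20.3 and 31.4 CPM with PLA Ab and 13.4, 16.7, 16.2, 14.3 and 22 CPM with GDF8 Ab in the control limb, against 48.9, 46.4, 37.5, 70.9 and 89.1 CPM and 23.6, 30.9, 25.8, 19.1 and 21 CPM in the ACLT limb. GDF8 Ab mouse 5 overlapped the placebo range in the control limb, and the groups were apart in the ACLT limb. The difference was -0.94 ± 0.15 (limma adjusted p = 0.118, 0.0425 in the blocked fit). Mttp, which loads lipid onto nascent lipoproteins, was among the genes without overlap and differed by -0.61.

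Cilp, a secreted matrix protein of cartilage and connective tissue known to bind TGF-beta, had the smallest p of all genes (ENSMUSG00000042254, chromosome 9). Its levels were 54.8, 27.2, 151, 25.3 and 24.7 CPM with PLA Ab and 18.9, 22.6, 30.5, 14.2 and 30.3 CPM with GDF8 Ab in the control limb, against 69, 174, 89.2, 300.2 and 449 CPM and 58.2, 60.1, 47.1, 36.7 and 30.8 CPM in the ACLT limb. In the control limb the placebo values spread widely, with mouse 3 high, and 2 GDF8 Ab libraries overlapped them, whereas the ACLT limbs did not overlap. The difference was -1.40 ± 0.185 (limma adjusted p = 0.114, 0.141 in the blocked fit). The other 9 leading genes below placebo differed by -0.71 to -0.30, at adjusted p from 0.118 to 0.122. Uap1 (-0.33), which makes the sugar donor UDP-N-acetylglucosamine, and Gnptab (-0.48), which tags lysosomal enzymes, act in glycosylation. Golm2 (-0.61) is a Golgi membrane protein, Snx12 (-0.43) a sorting nexin and Napb (-0.46) a protein of vesicle fusion. Capns1 (-0.32) is the small subunit of calpain proteases, Pkig (-0.50) an inhibitor of protein kinase A, Nek7 (-0.30) a kinase and Map1a (-0.71) a microtubule protein. Uap1 was at 51.1, 52.5, 52.5, 49.1 and 50.3 CPM with PLA Ab and 37, 39, 43.1, 38.7 and 41.9 CPM with GDF8 Ab in the control limb, against 52.6, 43.4, 50.2, 54.5 and 58.5 CPM and 42.6, 39.1, 40.2, 41.6 and 44.2 CPM in the ACLT limb. Of the 10 PLA Ab libraries only the ACLT limb of mouse 2 came within the GDF8 Ab range. Pkig was at 52.4, 54.2, 49.6, 46.8 and 45.1 CPM with PLA Ab and 42.3, 41.2, 39.9, 39.9 and 39.3 CPM with GDF8 Ab in the control limb, against 62.5, 66.3, 55.6, 87.1 and 103 CPM and 50.6, 47.5, 46.8, 35.5 and 41 CPM in the ACLT limb. The groups did not overlap in either limb.

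**Figure D2:**
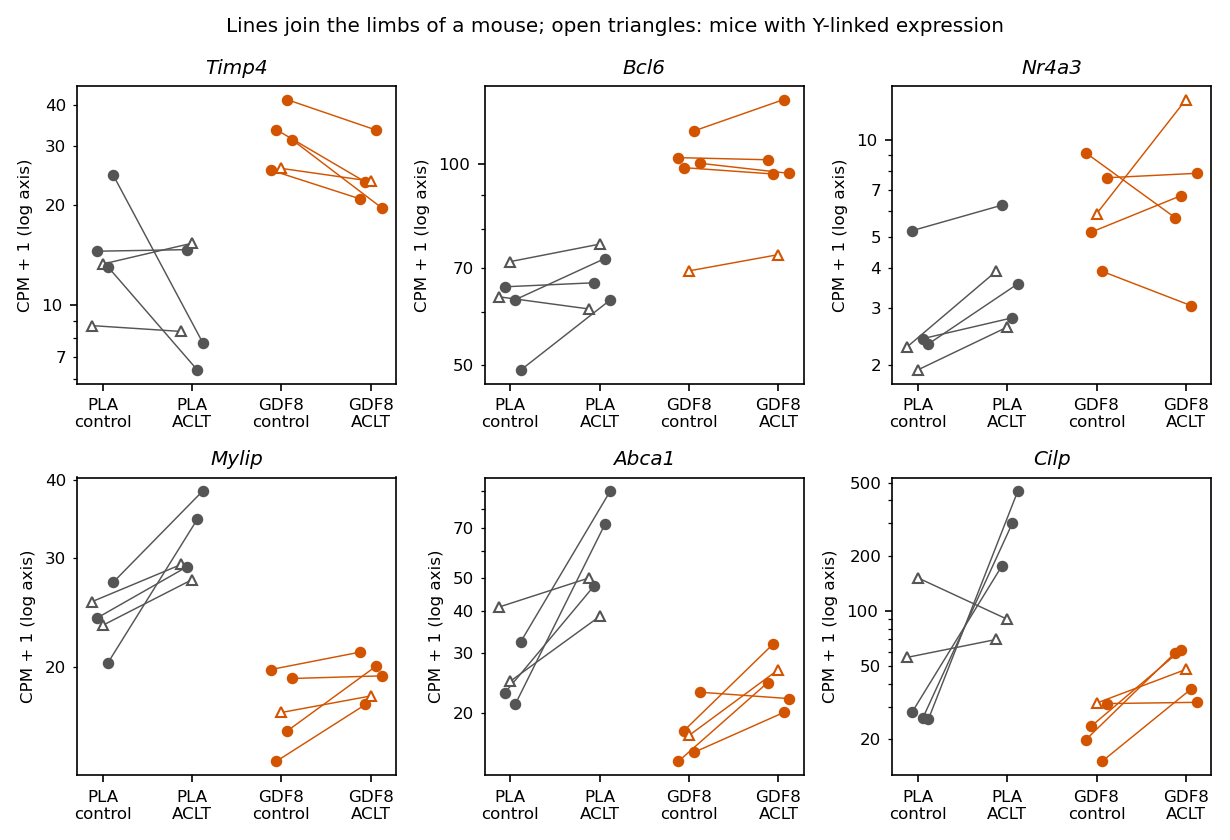
CPM + 1 on a log axis in each of the 20 libraries for 3 genes above placebo (Timp4, Bcl6, Nr4a3) and 3 below (Mylip, Abca1, Cilp), with lines joining the limbs of a mouse and open triangles for the 3 mice with Y-linked expression. All GDF8 Ab points of Timp4 lie above, and all of Mylip below, the placebo points of the same limb. In Cilp the placebo ACLT limbs reach 449 CPM.

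Mstn itself, the gene of the antibody's target, did not pass the test. Its mRNA was at 54.3, 68.8, 62.7, 35 and 70.4 CPM with PLA Ab and 69.7, 82.7, 62.2, 57.5 and 55.8 CPM with GDF8 Ab in the control limb, against 40.6, 41.3, 52.6, 56.8 and 48.9 CPM and 38.7, 83.1, 45.3, 72.8 and 61.5 CPM in the ACLT limb. The ranges overlapped in both limbs, and the difference was 0.24 ± 0.128 (95% interval -0.043 to 0.52, adjusted p = 0.272 in limma). Nr4a3, a nuclear receptor that responds to exercise, is a low-level transcript in these libraries. It was at 1.27, 4.23, 0.925, 1.41 and 1.32 CPM with PLA Ab and 8.13, 4.17, 4.9, 2.91 and 6.64 CPM with GDF8 Ab in the control limb, against 2.91, 5.27, 1.62, 1.8 and 2.57 CPM and 4.74, 5.71, 12.4, 2.05 and 6.89 CPM in the ACLT limb. PLA Ab mouse 2 lay within the GDF8 Ab range in both limbs, and GDF8 Ab mouse 4 was low. The difference was 1.03 ± 0.29 (limma adjusted p = 0.169, 0.125 in the blocked fit), 1.21 in the control and 0.85 in the ACLT limb. By exact permutation p was 0.0159. The study had named Nr4a3 from these same libraries, so this value is no separate support. Nr4a1 and Nr4a2, relatives of Nr4a3, differed by 0.25 ± 0.239 and -0.21 ± 0.247. Homer2, a scaffold protein of calcium signalling, differed by 0.48 ± 0.253 (limma adjusted p = 0.266), with 0.10 in the control and 0.85 in the ACLT limb. The ubiquitin ligase genes of atrophy, Trim63 (-0.017 ± 0.156, and 0.12 on median-of-ratios scaling) and Fbxo32 (0.14 ± 0.225), did not pass either, and their 95% intervals ran from -0.36 to 0.33 and from -0.36 to 0.63.

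Among receptors, ligands and regulators of the myostatin and activin pathway, 20 genes were tested and none passed. At an unadjusted p under 0.05, 7 lay below placebo and 0 above, against 20.1% and 2.07% of all genes, and the median was -0.18 beside -0.13 over all genes. With PLA Ab mice 4 and 5 left out 3 lay below placebo at that level. The members with the smallest p had the same sign in each limb. Ltbp3, a latent TGF-beta binding protein, differed by -0.47 ± 0.11, the type II receptor gene Acvr2b by -0.26 ± 0.0767 and follistatin (Fst) by -0.53 ± 0.167. All 5 GDF8 Ab control libraries of Acvr2b were below placebo, with a difference of -0.40 there and -0.11 in the ACLT limb. Of 14 targets of TGF-beta and SMAD2/3, 4 lay below placebo at an unadjusted p under 0.05, against 20.1% of all genes, with a median of 0.007 in the control and -1.01 in the ACLT limb. With PLA Ab mice 4 and 5 left out 0 did so and the median over both limbs moved from -0.45 to -0.024. Of them Pmepa1, an inhibitor of SMAD signalling, differed by -0.34 and -0.96 in the control and ACLT limb. In the group of 20 IGF and growth genes, 1 lay above and 6 below placebo at an unadjusted p under 0.05, and 1 and 2 without PLA Ab mice 4 and 5. Igfbp5, an IGF-binding protein of muscle, was above. It was at 379, 574, 658, 249 and 437 CPM with PLA Ab and 801, 1152, 975, 856 and 739.7 CPM with GDF8 Ab in the control limb, against 392, 845, 661, 751 and 789 CPM and 587, 1601, 807, 1209.5 and 696 CPM in the ACLT limb. All 5 control libraries with GDF8 Ab exceeded all placebo ones, and the ACLT limbs overlapped. The difference was 0.75 ± 0.211 (limma adjusted p = 0.169). Igf1, the growth factor, was below, at -1.18 ± 0.251 (limma adjusted p = 0.144), and its ACLT limbs in PLA Ab mice 2, 4 and 5 were at 88.4, 84.3 and 151 CPM against 27.8 and 31.8 CPM in mice 1 and 3. The Igf1 difference without PLA Ab mice 4 and 5 was -1.07 ± 0.291, with -0.87 in the control and -1.27 in the ACLT limb.

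Genes of amino acid and mitochondrial metabolism had medians slightly above placebo in both limbs, and most members did not reach an unadjusted p under 0.05. Of all 13502 genes tested, 2896 lay above placebo, 1659 of them in each limb. Of 25 tested genes of branched-chain amino acid catabolism, 20 lay above placebo in each limb and 12 reached an unadjusted p under 0.05 in that direction, beside 2.07% of all genes. The median was 0.21 (0.11 in the control and 0.25 in the ACLT limb). Dbt, a subunit of the branched-chain keto acid dehydrogenase, was at 28.8, 35.9, 34.3, 35.9 and 31.8 CPM with PLA Ab and 46.5, 49.9, 36.3, 49.4 and 44.9 CPM with GDF8 Ab in the control limb, against 19.4, 38.8, 36.2, 21.8 and 26.8 CPM and 42.7, 50.3, 34.2, 48.8 and 38.7 CPM in the ACLT limb. All 5 GDF8 Ab control libraries exceeded the placebo ones, by less than 1 CPM for mouse 3. In the ACLT limb GDF8 Ab mice 3 and 5 lay within the placebo range. Dbt differed by 0.52 ± 0.131, Ivd by 0.47 ± 0.109, the carboxylase subunit gene Mccc2 by 0.33 ± 0.0924 and the mitochondrial transaminase gene Bcat2 by 0.35 ± 0.103. The cytosolic transaminase gene Bcat1, at a mean of 2.55 CPM, was the single member below placebo, at -0.99 ± 0.361. Adjusted p was at least 0.151 for every member in limma. In the tricarboxylic acid cycle list all 21 genes lay above placebo, 19 in each limb, and 7 reached an unadjusted p under 0.05 (median 0.18). Citrate synthase (Cs) differed by 0.26 ± 0.0856, Idh2 by 0.49 ± 0.169 and Sdhb by 0.35 ± 0.128. The fatty acid list (27 tested, median 0.17) held 4 such genes, among them the nuclear receptor gene Ppara at 0.47 ± 0.189. The nuclear-encoded respiratory chain list (80 tested, median 0.15) held 5. The 13 mitochondrially encoded genes were all above placebo in each limb, by a median of 0.15, and none had an unadjusted p under 0.05. Glycolysis genes (17 tested, median 0.10) lay above placebo in 12 and below in 5, 1 at an unadjusted p under 0.05. Without PLA Ab mice 4 and 5 the genes above placebo at an unadjusted p under 0.05 went from 12 to 7 for branched-chain genes, 7 to 1 for the tricarboxylic acid cycle, 4 to 2 for fatty acid genes and 5 to 0 for the respiratory chain, beside 1.64% of all genes. The medians were then 0.14, 0.091, 0.15 and 0.039 in that order, 0.037 for mitochondrially encoded genes and -0.04 for glycolysis, beside -0.051 over all genes.

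Contractile and structural genes are given beside all 13502 genes tested, of which 2896 lay above placebo, 1659 of them in each limb. At an unadjusted p under 0.05, 2.07% of all genes lay above placebo. All 15 fast fibre genes lay above placebo over the mean of the limbs, 11 of them in each limb, with a median of 0.24, and Casq1 (0.36 ± 0.141), Pvalb (0.43 ± 0.18) and Tnnc2 (0.31 ± 0.139), genes of calcium storage, buffering and sensing, reached an unadjusted p under 0.05. Leaving out PLA Ab mice 4 and 5 gave a median of 0.059 and no such gene. The fast myosin gene Myh4 differed by 0.24 ± 0.235. Slow fibre genes had medians of -0.52 in the control and 0.23 in the ACLT limb, and none of 12 reached an unadjusted p under 0.05. Mss51, a skeletal muscle gene known to fall when myostatin is blocked in muscle, was named after its values were seen. It was at 77.9, 61.8, 81.5, 53.2 and 40.8 CPM with PLA Ab and 21.9, 27.2, 28.5, 17.2 and 21.9 CPM with GDF8 Ab in the control limb, against 52.7, 23, 82, 68 and 43.5 CPM and 32.6, 46.3, 34.4, 22.3 and 35.6 CPM in the ACLT limb. All GDF8 Ab control libraries lay below all placebo ones, and in the ACLT limb PLA Ab mice 2 and 5 lay among the GDF8 Ab values. The difference was -0.96 ± 0.209 (limma adjusted p = 0.144 in limma), -1.37 in the control and -0.55 in the ACLT limb. Adipocyte markers were above placebo in all 12 tested genes, 8 of them in each limb (median 0.46), 2 at an unadjusted p under 0.05, of which Plin4, a lipid droplet protein also made in muscle, differed by 0.61 ± 0.189. Summed adipocyte marker levels overlapped between antibodies, at 785 to 2395 CPM with PLA Ab and 1151 to 3554 CPM with GDF8 Ab over both limbs. A whole muscle holds several cell types, and fewer cells of a type cannot be told apart from less RNA per cell.

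Genes of protein synthesis and breakdown are given beside the background on CPM, a median of -0.13 and 20.1% of all genes below placebo at an unadjusted p under 0.05. Of all 13502 genes tested, 10606 lay below placebo, 6728 of them in each limb. Of 85 cytosolic ribosomal protein genes, 78 were below placebo in each limb and 36 at an unadjusted p under 0.05, with a median of -0.24 (-0.10 on median-of-ratios scaling). That count without PLA Ab mice 4 and 5 was 5 and the median -0.12. Rpl3 differed by -0.88 ± 0.256 and Rps25 by -0.31 ± 0.0958. The 38 proteasome subunit genes had a median of -0.12, 11 of them at an unadjusted p under 0.05, and this median changed sign to 0.018 on median-of-ratios scaling. Polyamine genes were below placebo in all 12 tested, 7 of them in each limb, 3 at an unadjusted p under 0.05, with Azin1, an antizyme inhibitor, at -0.41 ± 0.131 (median -0.18). The proteasome median and the polyamine count were near the background.

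Several groups had a large mean difference that came almost wholly from the ACLT limb. For 16 macrophage and monocyte genes the median was -0.96, made of -0.052 in the control and -1.86 in the ACLT limb, and 12 lay below placebo at an unadjusted p under 0.05. Cell cycle genes showed -0.018 and -1.92 (11 of 12 below placebo at an unadjusted p under 0.05), satellite cell and regeneration genes -0.084 and -1.83 (9 of 13), denervation and neuromuscular junction genes -0.057 and -0.90 (10 of 16) and fibrillar and network collagens -0.03 and -1.65 (8 of 18), beside 20.1% of all genes. Myh3, the embryonic myosin of regenerating fibres, was at 8.2, 5.66, 4.8, 11.8 and 9.8 CPM with PLA Ab and 4.63, 11.1, 2.46, 5.43 and 11.1 CPM with GDF8 Ab in the control limb, against 43.1, 451, 47.7, 590.5 and 810.4 CPM and 19.9, 20.7, 14.4, 5.06 and 13.9 CPM in the ACLT limb. Its ACLT limbs did not overlap, and PLA Ab mice 2, 4 and 5 were the highest. Gpnmb, a gene of phagocytic macrophages, was at 2.79, 2.99, 1.16, 1.99 and 3.09 CPM with PLA Ab and 2.38, 3.52, 1.74, 1.63 and 2.69 CPM with GDF8 Ab in the control limb, against 28.9, 43.6, 43.9, 125 and 109 CPM and 7.18, 16.4, 10.7, 12.7 and 7.45 CPM in the ACLT limb. All 5 placebo ACLT libraries exceeded all 5 with GDF8 Ab, and the control limbs overlapped. Chrng, the fetal acetylcholine receptor subunit, ranged from 0 to 0.146 CPM in the 10 control limbs, at or about the 3-read floor of 0.124 to 0.192 CPM. In the ACLT limb it was at 3.16, 17.3, 5.27, 33.7 and 52.3 CPM with PLA Ab and 0.52, 0.866, 0.932, 0 and 0.236 CPM with GDF8 Ab. Such genes count as the same sign in each limb even where the control difference is near 0, as for Chrng (-0.041). Chrng, the cell cycle gene Ccnb2 and the regeneration gene Mymx reached 1 CPM only in placebo ACLT libraries. They passed the filter only through the group where they were high, so their place in these counts is no separate support. Other such members were not counted. When PLA Ab mice 4 and 5 were left out, the counts below placebo at an unadjusted p under 0.05 were 7 for macrophage, 10 for cell cycle, 5 for satellite cell, 5 for denervation and 0 for collagen genes, beside 6.84% of all genes. The medians over both limbs were then -0.54, -0.53, -0.39, -0.40 and -0.27. With mouse 2 left out too they were -0.25, -0.36, -0.15, -0.20 and 0.12. That leaves 2 PLA Ab mice, both with Y-linked expression.

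**Figure D3:**
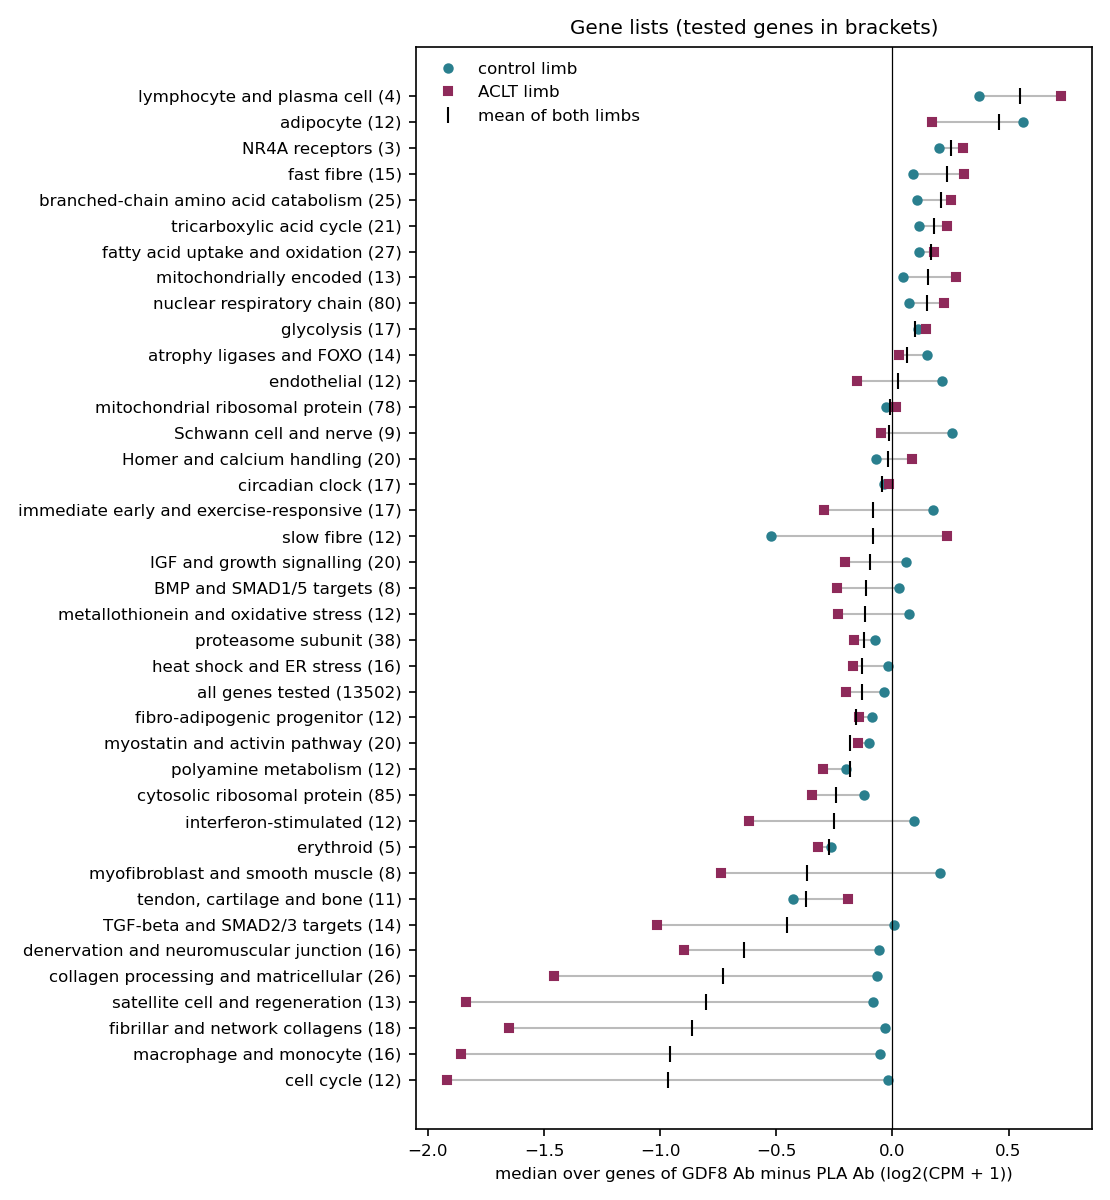
Median over genes of the GDF8 Ab minus PLA Ab difference in log2(CPM + 1), for each list with 3 or more tested genes, in the control limb (circles), the ACLT limb (squares) and the mean of both (vertical ticks). Metabolic lists lie above 0 in both limbs (0.11 and 0.25 for branched-chain amino acid catabolism), while macrophage and cell cycle lists are near 0 in the control limb and at -1.86 and -1.92 in the ACLT limb.

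**Figure D4:**
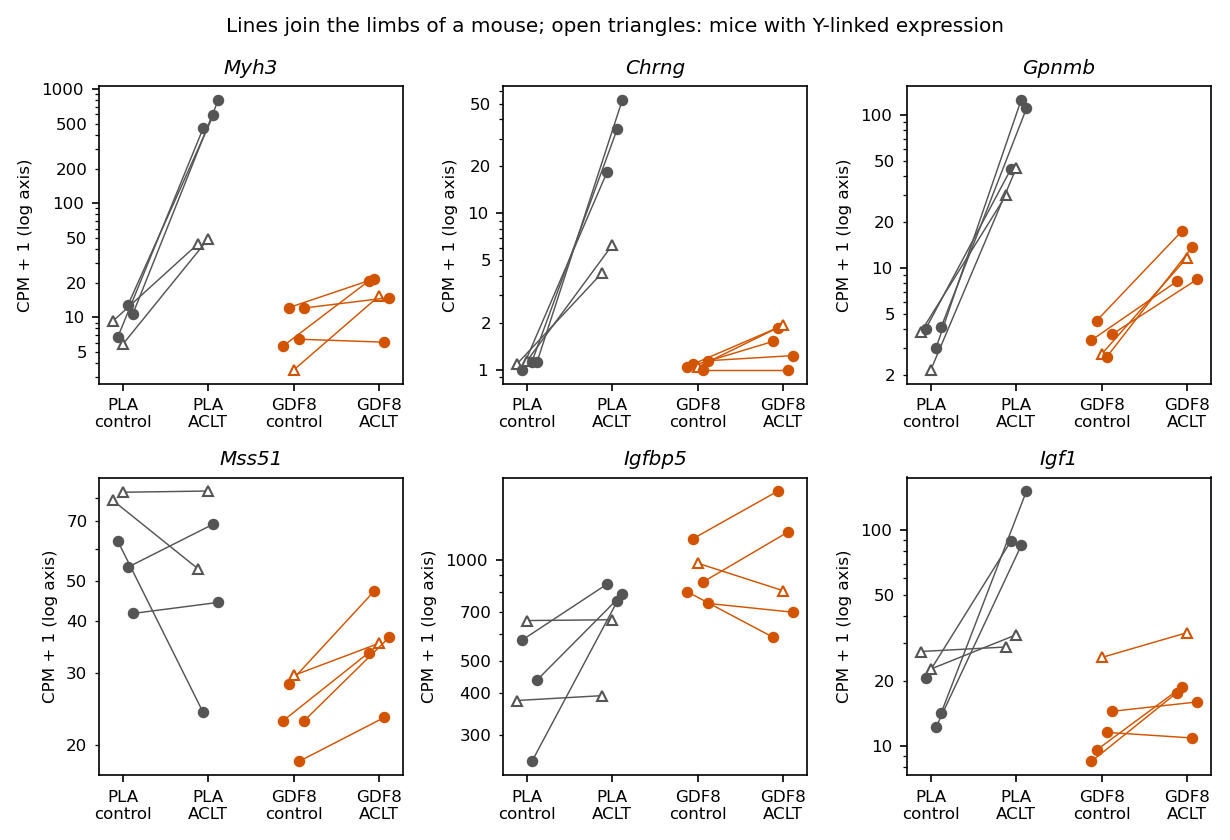
CPM + 1 on a log axis in each of the 20 libraries for genes whose antibody difference was unequal between limbs, with lines joining the limbs of a mouse and open triangles for the 3 mice with Y-linked expression. Myh3, Chrng, Gpnmb and Igf1 are highest in the placebo ACLT limbs, whereas Mss51 and Igfbp5 separate the antibodies in the control limb.

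The difference between limbs was tested itself, on ACLT minus control within each mouse. limma called 0 of 13502 genes (0%), with a smallest adjusted p of 0.216 and 2734 genes at an unadjusted p under 0.05, of which 2436 had a more negative antibody difference in the ACLT limb. Among the 6 genes with the smallest p were Gm20431, Scarb1, the HDL receptor, Cacna1h, a T-type calcium channel, Itga6, a laminin-binding integrin, and Gm9917. Scarb1 differed by 0.10 in the control and -1.09 in the ACLT limb (adjusted p for the limb difference = 0.216). The matrix genes and Acta2, which the study describes, had large limb differences that did not pass. For Postn, Lox, Homer2 and Nr4a3 the study compared groups with DESeq2, which is another test and another contrast. The study reported that Postn and Lox rose after ACLT and that GDF8 Ab lessened the rise. It reported the same for Acta2 expression 1 week after ACLT, and for smooth muscle actin staining of collagen 1-expressing cells. It also measured periostin and collagen cross-links in the muscle. Postn, a matricellular protein, differed by 0.03 and -2.86 (limma adjusted p = 0.218), the collagen cross-linking enzyme gene Lox by -0.17 and -2.34 (0.235), and Acta2, smooth muscle actin, by 0.41 and -1.93 (0.216). Without PLA Ab mice 2, 4 and 5 the means over both limbs changed sign for Postn, to 0.28, and for Acta2, to 0.14. The 2 PLA Ab mice left in that set both have Y-linked expression, so sex and antibody can hardly be told apart. The opposite order, a larger difference in the control limb, was seen for Mss51 (limma adjusted p for the limb difference = 0.216). For Timp4 the limb difference was 0.12 ± 0.315, and for Uap1 0.041 ± 0.123. A p that misses the threshold does not show that the limbs responded alike.

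The results changed when the 3 mice with Y-linked expression were left out, which leaves 3 PLA Ab and 4 GDF8 Ab mice. limma then called 4436 of 13502 genes. With the same sign in each limb, 156 rose (1.16%) and 3380 fell (25%), and the limb difference itself was called for 3376 genes (25%). Of the genes called with the same sign, 2010 had no called limb difference, 151 above and 1859 below placebo. Leaving out PLA Ab mice 1 and 3 alone, a choice made after seeing the data, moved the counts further, to 4918 of 13502 genes called. Without PLA Ab mice 4 and 5, 0 were called, and without mice 2, 4 and 5, 1 was called, Lcn2. The last set leaves PLA Ab mice 1 and 3, both with Y-linked expression. With Y-linked expression as a covariate over all 10 mice 0 were called, at a smallest adjusted p of 0.052. The placebo group without mice 1 and 3 holds the 3 mice whose ACLT limbs stood apart. Their part in these calls was not tested.

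In the 7 mice without Y-linked expression the 24 genes named by rank all passed, beside 4436 of all 13502 genes. They had been chosen for small p over the 10 mice that include these 7, so this is a description and no separate support. Timp4 rose by 1.18 (limma adjusted p = 0.00547), Bcl6 by 0.73 (0.00338), Mlf1 by 0.61 (0.00805) and Aldh4a1 by 0.48 (0.0092), all in limma. Mylip changed by -0.64 (0.00694), Abca1 by -1.01 (0.0055) and Cilp by -1.48 (0.00337). The Cilp value came mainly from the ACLT limb, with -0.30 in the control and -2.65 in the ACLT limb, and its limb difference was itself called, at -2.36 (limma adjusted p = 0.0259), as was that of Map1a. Nr4a3 (0.73, 0.116), Mstn (0.29, 0.166) and Homer2 (0.35, 0.133) did not pass. Counting genes called with the same sign in each limb, 7 of 25 branched-chain genes and 1 of 21 tricarboxylic acid cycle genes rose, beside 1.16% of all genes, and 1 branched-chain gene fell. Of cytosolic ribosomal protein genes 73 of 85 fell, of macrophage genes 14 of 16, of collagens 14 of 18 and of cell cycle genes 6 of 12, beside 25% of all genes. In that order the list medians were -0.15, -0.22, -0.21 and 0.0046 in the control limb. In the ACLT limb they were -0.57, -2.80, -3.18 and -2.68. A count by the same sign does not show that the control limb differed by itself.

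**Figure D5:**
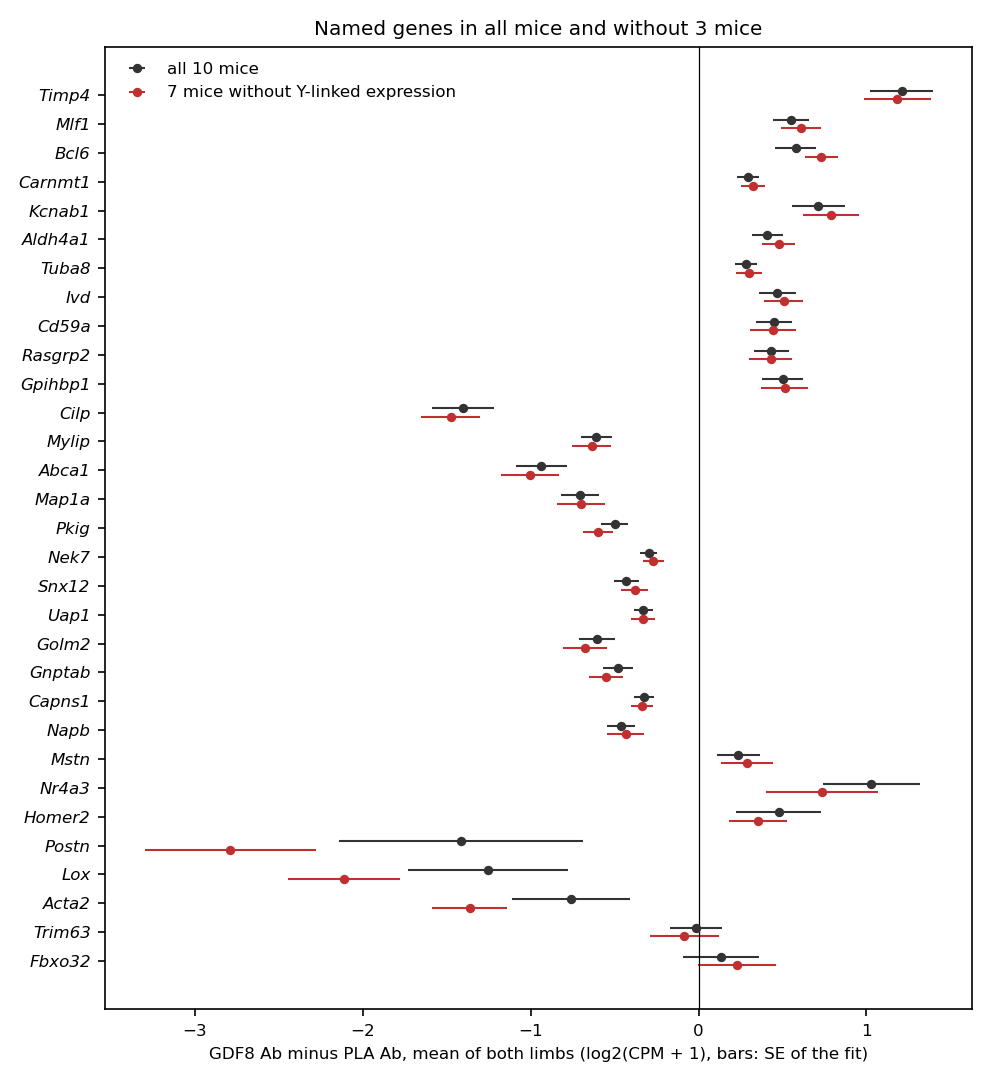
GDF8 Ab minus PLA Ab over the mean of both limbs, in log2(CPM + 1) with bars for the SE of the fit, for the named genes in all 10 mice and in the 7 mice without Y-linked expression. Timp4 lies at 1.21 and 1.18 and Mylip at -0.61 and -0.64, while Postn moves from -1.41 to -2.79.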

How the data were processed

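RNA from 20 quadriceps samples was sequenced, and the submitters' processing notes name STAR 2.7.3a, Partek and DESeq2 and the builds mm10 and mm39, with no role given. The deposited values were CPM, made by the authors in Partek from read counts, and the columns each summed to 1e+06. Only 73.7 to 78.0% of values were within 0.02 of whole reads, so whole reads could not be restored and the values were tested on the log scale. Depth was read from the smallest step between values, and the floor of 3 reads, 0.124 to 0.192 CPM, covers counting error only.

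Values were transformed as log2(CPM + 1), the pseudocount being 1, and genes that reached 1 CPM in fewer than 5 libraries were dropped. The 5 mouse means per antibody were compared with limma 3.58.1 (lmFit and eBayes with a trend, R 4.3.3), with Benjamini-Hochberg adjustment over 13502 genes at 0.05. ACLT minus control within a mouse was compared by the same test, and single genes by a two-sided exact permutation test of the 10 means. The code was tested on simulated data. Limbs of a mouse deviated together from their group means in 8 of 10 pairs (r over 0.1, range 0.035 to 0.52), and numbers were not paired between antibodies. In 7 of 10 pairs the own number gave the highest r. For PLA Ab mice 1, 2 and 4 it did not, with r of 0.24, 0.035 and 0.21 against 0.33, 0.42 and 0.26 for another number. Named genes were 12 in each direction by the smallest unadjusted p, with the same sign in each limb and a mean of at least 5 CPM, the 8 genes the study describes, and the first 6 by p for the limb difference. Some genes that these rules name are not reported here. Other genes, such as Igkc, Jchain, Mss51, Igf1, Igfbp5, Myh3, Chrng and Gpnmb, and the examples within lists were chosen after their values were seen. The members, the gene lists and the comparison were chosen with earlier results of these data known. Alternatives were the filter, the pseudocount, the scaling, averaging CPM before the log, a robust fit, blocks, Y-linked expression and left-out mice. Promoter windows came from RefSeq tables of GRCm38.p6, and no coordinates of the deposited table were used.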

Additional observations from a re-analysis of the deposited data

Results flagged for a closer look

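Among 82 groups of 5 mouse means of the named genes, 4 held a mouse whose gap to its nearest neighbour, as a share of the group's range, exceeded Dixon's 95% critical value of 0.71. Chance flags about 1 in 20 groups. All values are means of log2(CPM + 1) over the limbs of a mouse. GDF8 Ab mouse 3 was low for Ivd, at 7.08 with the next mouse at 7.35, and for Gm20431, at 0.63 with the next at 1.74. PLA Ab mouse 5 was low for Cd59a, at 4.55 with the next at 4.79, and GDF8 Ab mouse 2 was low for Itga6, at 3.72 with the next at 4.30.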

How the results depend on the processing

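On the 10 mouse means, 0 genes were called for the antibody effect or the limb difference with no filter, a filter of 10 CPM, pseudocounts of 0.1 and 5, a robust fit, median-of-ratios scaling, Y-linked expression as a covariate or the replicate number as a block, or without PLA Ab mice 4 and 5, and 0 for the antibody effect with averaged CPM, where the limb difference was not fitted. With the mouse as a random replicate block 8 genes were called and 8 had the same sign in each limb, and with no replicate block 142 and 139. In the 7 mice without Y-linked expression 4436 genes were called, 3536 with the same sign in each limb, and 3376 limb differences were called. With PLA Ab mice 1 and 3 left out, chosen after seeing the data, these counts were 4918, 3979 and 4115, and without PLA Ab mice 2, 4 and 5, also chosen after seeing the data, 1, 1 and 0. Leaving out 1 mouse at a time gave 0 to 6 called genes, 0 to 6 of them with the same sign in each limb, with 6 without PLA Ab mouse 1 (Igha, Igkc, Cilp, Mymx, Cdca3 and Chrng) 5 without GDF8 Ab mouse 3 (B230312C02Rik, Igf1, Lgals1, Cilp and Bcl6) and 0 without any other mouse. Genes above placebo at an unadjusted p under 0.05, 280 on the mouse means, were 181 (without GDF8 Ab mouse 4) to 402 (without PLA Ab mouse 2), 1068 on median-of-ratios scaling and 793 without PLA Ab mice 2, 4 and 5. Those below, 2711 on the mouse means, were 1544 (without PLA Ab mouse 4) to 4021 (without PLA Ab mouse 3), and 1299 on median-of-ratios scaling, 1499 with the 10 CPM filter, 4620 with the Y-linked covariate, 5899 in the 7 mice, 6237 without PLA Ab mice 1 and 3, 923 without PLA Ab mice 4 and 5, and 881 without mice 2, 4 and 5. Of 41 named genes, 33 kept their direction in all 25 alternatives. The 12 named by rank in each direction were picked for small p and equal signs in these same mice. The count is therefore a description and no separate support. Trim63, at -0.017, was 0.12 on median-of-ratios scaling, 0.11 without PLA Ab mice 4 and 5, and -0.11 to 0.11 with single mice left out. Gm20431 was 0.021 on median-of-ratios scaling, 0.012 in the 7 mice, 0.18 without PLA Ab mice 4 and 5, and -0.23 to 0.16 with single mice left out. Itga6 was 0.035 on median-of-ratios scaling, 0.16 without PLA Ab mice 4 and 5, and -0.25 to 0.044 with single mice left out. When PLA Ab mice 4 and 5 were left out, Fbxo32 was -0.0597, Cacna1h 0.0353 and Gm9917 0.0203. With mouse 2 left out too, Postn was 0.281, Acta2 0.143, Trim63 0.0335, Fbxo32 -0.154, Gm20431 0.122, Cacna1h 0.0923, Itga6 0.303 and Gm9917 0.00102. The PLA Ab mice left there, 1 and 3, both have Y-linked expression. The causes of these changes were not tested.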

Other observations

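Other gene groups are given as values on the mean of both limbs, in log2(CPM + 1), GDF8 Ab minus PLA Ab. None of their members passed in limma. Of all 13502 genes tested, 2896 lay above placebo and 10606 below, 1659 and 6728 of them in each limb. At an unadjusted p under 0.05, 2.07% of all genes lay above placebo. Of 12 endothelial genes, 1 was above placebo at an unadjusted p under 0.05, the VEGF receptor gene Flt1 at 0.27 ± 0.0936, and the list medians were 0.22 in the control and -0.15 in the ACLT limb. Of 12 interferon-stimulated genes 2 were below placebo at that level, beside 20.1% of all genes, with Isg15 at -0.48 ± 0.182, and the medians were 0.094 and -0.62. Without PLA Ab mice 4 and 5 there were 0 such genes and the median over both limbs moved from -0.25 to -0.061. The 11 tested genes of tendon, cartilage and bone had medians of -0.43 in the control and -0.19 in the ACLT limb, with the tendon transcription factor gene Scx at -0.70 ± 0.302. The 5 erythroid genes lay below placebo in each limb, at a median of -0.27, and none had an unadjusted p under 0.05. Of 78 mitochondrial ribosomal protein genes, 37 lay above and 41 below placebo, and their median of -0.011 was 0.12 on median-of-ratios scaling. Lcn2, a neutrophil granule gene that other cells also make, was at -1.30 in the control and -1.81 in the ACLT limb, and the other neutrophil gene tested, Csf3r, at 0.052 and -1.24.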
